A study of Mus musculus with 2 samples.

Results

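The genes described here are 31 genes of sterol and fatty acid synthesis, taken as a fixed list from the 31053 genes of the matrix. They comprise 14 enzymes that make sterols (Hmgcs1, Mvk, Pmvk, Mvd, Idi1, Fdps, Fdft1, Sqle, Lss, Cyp51, Msmo1, Nsdhl, Sc5d and Dhcr7), 6 regulators and carriers of sterols (Srebf1, Srebf2, Scap, Insig1, Insig2 and Stard4) and 11 enzymes that make, lengthen, desaturate or activate fatty acids (Fasn, Acaca, Scd1, Scd2, Elovl1, Elovl5, Elovl6, Fads1, Fads2, Acsl3 and Acsl4). The study is titled as one of ACSS2 inhibitors in triple negative breast cancer, and its design text names Bmal1 status. Mouse tumours of the strain labelled NGS mouse, 3 given an ACSS2 inhibitor (ACSS2i) and 3 given vehicle, were pooled at 4000 to 6000 live cells each and run on 1 lane of a droplet platform that counts the 3′ ends of polyadenylated RNA as unique molecular identifiers (UMIs). Each of 6 antibody tags, named D0, D1, D4, U2, U3 and U4, marks cells of a sample. The labels do not tie a tag to ACSS2i or vehicle, nor to a Bmal1 genotype, so tags are given singly, no treatment comparison is made, and the pool counts as 1 sample with no test over replicates.

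Cholesterol is built from acetyl-CoA through mevalonate, isoprenoid units and squalene, and the ring formed by Lss is then trimmed by Cyp51, Msmo1, Nsdhl, Sc5d and Dhcr7. When sterol in the endoplasmic reticulum is low, Scap carries the SREBP precursors encoded by Srebf2 and Srebf1 to the Golgi, where proteases release the transcription factors that bind sterol regulatory elements of these genes, together with NF-Y at CCAAT boxes and Sp1 at GC boxes. Insig1 and Insig2 hold Scap back when sterol is plentiful, and Insig1 is itself an SREBP target. Fasn and Acaca make palmitate, Scd1 and Scd2 put in the first double bond, and the Elovl and Fads enzymes lengthen and further desaturate the chain.

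Barcodes were placed in 3 classes by rule. Those with at least 3 UMIs of Krt8 and Krt18 together and no Ptprc (the pan-leukocyte gene) numbered 5216, with a median of 25138 UMIs. Those with at least 2 UMIs of Cd3d, Cd3e and Cd3g numbered 701, with a median of 1609 UMIs, and those with at least 3 UMIs of C1qa, C1qb and C1qc numbered 359, with a median of 4120 UMIs. Of the markers that no rule used, Trac, Trbc2 and Cd2 stood at 468 to 1045 CPM (UMIs per 1000000 gene UMIs of the class) in Cd3 cells, and Adgre1, Csf1r, Lyz2 and Cd68 at 176 to 9414 CPM in C1q cells. In the Krt8/Krt18 class none of the 4 epithelial markers outside the rule (Krt19, Krt7, Epcam and Cdh1) reached 1 CPM. Of the 4 fibroblast markers there, Dcn had 2579 CPM, Col1a1 29.2, Pdgfra 13.4 and Lum 0.32 CPM. That class is therefore called Krt8/Krt18 cells after its rule and not epithelial. Cd3 cells held all 4 fibroblast markers above 1 CPM, 808 CPM in sum with Col1a1 at 418 CPM, and 6 of 7 macrophage markers, 26.2 CPM in sum. Their part in the Cd3 comparisons was not tested. Untagged barcodes made up 35.5% of Krt8/Krt18 cells and none of the other classes. As a gauge of free RNA in droplets, Sox9 and Hmga2 stood in Cd3 cells at 5.31% and 6.08% of their Krt8/Krt18 level, and in C1q cells at 4.50% and 2.90%.

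The promoters of 5 members are shown because these genes give the sharpest contrast in the cell-to-cell results that follow: Hmgcs1, Idi1, Cyp51 and Insig1 moved together, and Insig2 went the other way. Each window is 300 bases, 250 before the RefSeq start and 50 after it, on build GRCm38.p6, written in lower case 5′ to 3′ along the strand of the gene. Capitals mark the sterol regulatory element letters TCACNCCAC and the CCAAT box, searched on both strands (ATTGG is CCAAT read on the other strand). Some members had more than 1 window, and the first listed for each gene is shown.
Hmgcs1, chr13:119690101-119690400, plus strand: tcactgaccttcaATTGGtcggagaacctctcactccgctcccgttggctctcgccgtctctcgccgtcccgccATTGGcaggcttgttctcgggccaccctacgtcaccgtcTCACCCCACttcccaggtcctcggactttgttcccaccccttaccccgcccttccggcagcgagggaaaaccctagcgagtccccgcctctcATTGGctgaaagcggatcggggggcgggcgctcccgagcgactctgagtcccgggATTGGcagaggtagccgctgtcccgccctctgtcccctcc
Idi1, chr13:8885356-8885655, plus strand: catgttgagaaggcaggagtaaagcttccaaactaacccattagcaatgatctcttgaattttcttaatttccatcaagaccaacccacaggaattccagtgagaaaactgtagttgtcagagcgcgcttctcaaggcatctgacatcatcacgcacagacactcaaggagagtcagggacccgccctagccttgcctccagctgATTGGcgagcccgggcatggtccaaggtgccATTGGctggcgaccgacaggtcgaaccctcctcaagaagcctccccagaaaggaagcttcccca
Cyp51, chr5:4104648-4104947, minus strand: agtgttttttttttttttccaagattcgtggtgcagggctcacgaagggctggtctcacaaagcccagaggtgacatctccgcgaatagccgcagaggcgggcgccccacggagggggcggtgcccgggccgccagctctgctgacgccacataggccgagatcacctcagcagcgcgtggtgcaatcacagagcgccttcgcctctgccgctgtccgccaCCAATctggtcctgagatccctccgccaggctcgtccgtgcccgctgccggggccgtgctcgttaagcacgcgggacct
Insig1, chr5:28071162-28071461, plus strand: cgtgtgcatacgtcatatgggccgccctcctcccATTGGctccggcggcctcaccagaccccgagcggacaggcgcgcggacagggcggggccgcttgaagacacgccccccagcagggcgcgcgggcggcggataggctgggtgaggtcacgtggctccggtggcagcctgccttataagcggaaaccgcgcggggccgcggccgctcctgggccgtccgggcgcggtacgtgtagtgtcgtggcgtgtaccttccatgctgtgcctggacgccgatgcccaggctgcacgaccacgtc
Insig2, chr1:121332540-121332839, minus strand: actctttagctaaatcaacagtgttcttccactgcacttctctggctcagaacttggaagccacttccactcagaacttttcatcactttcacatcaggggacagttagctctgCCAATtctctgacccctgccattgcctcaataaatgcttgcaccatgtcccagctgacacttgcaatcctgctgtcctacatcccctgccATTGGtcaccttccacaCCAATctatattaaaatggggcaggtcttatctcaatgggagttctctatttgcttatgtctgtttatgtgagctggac
The table of promoters held 33 windows for 24 of the 31 members. The TCACNCCAC letters were in 1 of these windows (3.03%), that of Hmgcs1 at 137 bases before the start, and in 1.24% of all 32851 promoters. A CCAAT box was in 20 of 33 member windows (60.6%), against 37.4% of all promoters. All 11 sterol synthesis genes with a window had a CCAAT box in at least 1 of theirs, as did 41.1% of all 27025 genes. In the windows shown, Hmgcs1 had 4, Insig2 3, Idi1 2, and Cyp51 and Insig1 1 each, so the box was present in that Insig2 window as well. The Insig2 window shown had no GC box (GGGCGG), while another window of Insig2 did. The GC box GGGCGG was in 72.7% of member windows and 35.7% of all, and the E-box CACGTG in 18.2% and 7.15%. These are matches of letters and not sites of binding.

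Sterol synthesis genes varied widely between Krt8/Krt18 cells, and they varied together. Over the 4937 such cells with at least 10000 UMIs, all 25 members that averaged at least 20 CPM had a coefficient of variation beyond Poisson noise above the median of all genes. That coefficient had a median of 0.93 over 11 sterol synthesis genes, 0.71 over 4 regulation genes, 0.63 over 10 fatty acid genes and 0.46 over all 5213 genes of that level. Hmgcs1, which condenses acetoacetyl-CoA with acetyl-CoA, had a coefficient of 1.43. Insig1 had 1.20 and Idi1, the isomerase that makes the reactive isoprenoid unit, had 1.12. Insig2 had 0.55 and was thus the more even of the 2 Insig genes.

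To show what moved with the pathway, the cells were ranked by the summed UMI share of the sterol synthesis members, leaving out the gene being described, and cut into 4 quartiles. From the lowest to the highest quartile the summed sterol level was 218, 618, 1262 and 2559 CPM. Idi1 read 14.6, 67.9, 160 and 337 CPM from the lowest quartile to the highest, a ratio of 23.0 between the top and bottom quartiles (counting interval 20.9 to 25.4). Hmgcs1 read 37.4, 108, 247 and 551 CPM, a ratio of 14.8. Both genes climbed at every step.

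The remaining sterol synthesis genes followed the same order. Cyp51, which removes the methyl group of lanosterol, had a top-to-bottom ratio of 14.7, Fdps (farnesyl diphosphate synthase) 12.8, Mvd (mevalonate diphosphate decarboxylase) 11.7 and Msmo1 (methylsterol oxidase) 9.61. Pmvk and Mvk, the kinases of mevalonate, had 7.70 and 7.03. Lss had 6.41, Nsdhl 5.63, Sqle (squalene epoxidase) 5.62 and Fdft1 (squalene synthase) 4.45. Sc5d had 2.93, which was the smallest among the 13 genes that passed the level filter, a mean of 10 CPM over the 2 quartiles. Dhcr7, which makes cholesterol from its last precursor and stayed under that filter, had 3.73. All 13 were thus at least 2-fold higher in the top quartile, and their median ratio was 7.70. Over all 7108 genes tested 2.76% were at least 2-fold higher, 1.29% at least 2-fold lower, and the median ratio was 1.12. Because the ranking uses the other genes of the same path, these ratios describe how tightly the path moved as a block and carry no test.

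**Figure D1:**
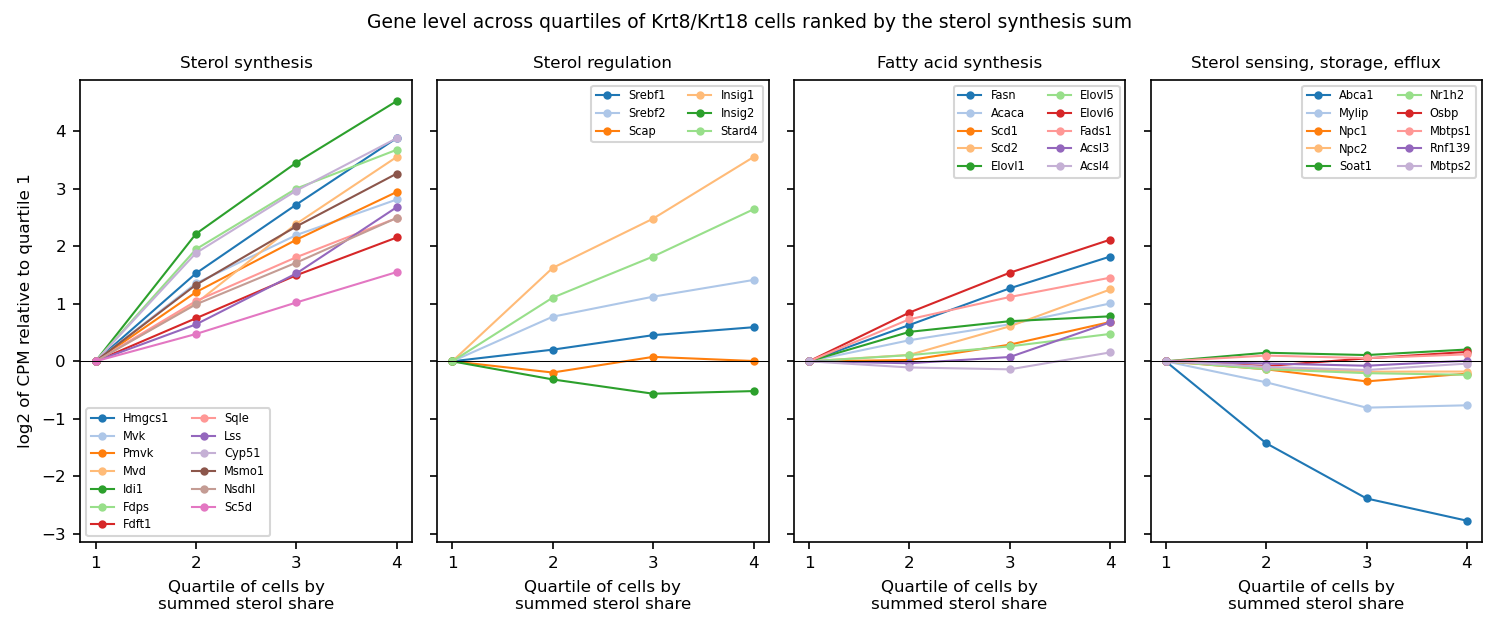
Level of each gene in quartiles of Krt8/Krt18 cells ranked by summed sterol synthesis share (x axis, lowest to highest), as the log2 of its CPM relative to the lowest quartile (y axis), for the reported genes averaging at least 10 CPM over the outer quartiles. Idi1 reaches a ratio of 23.0, Insig2 falls to 0.70 and Abca1 to 0.15, while Scap stays at 1.004.

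The regulators split. Insig1 read 12.0, 37.1, 67.1 and 141 CPM from the lowest to the highest quartile, a ratio of 11.7. Stard4, which carries cholesterol between membranes, read 10.6, 22.8, 37.4 and 66.1 CPM, a ratio of 6.25. Srebf2, the SREBP gene tied mainly to cholesterol synthesis, had a ratio of 2.67. Srebf1, tied mainly to fatty acid synthesis, had 1.51. Scap had 1.004 (0.86 to 1.17).

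Insig2 was the exception among the members. It read 117, 94.1, 79.2 and 81.8 CPM from the lowest to the highest quartile, a ratio of 0.70 (0.67 to 0.73). By tag it stood at 79.4, 77.1, 94.4, 77.1, 78.1 and 84.6 CPM in the top quartile of U2, U3, U4, D0, D1 and D4, against 114, 120, 106, 124, 111 and 125 CPM in the bottom quartile of the same tags. The 2 quartiles did not overlap across tags, and the top one was lower in 6 of 6. Insig1 in the same tags stood at 142, 124, 102, 140, 146 and 121 CPM in the top quartile, against 10.8, 7.27, 10.996, 18.7, 12.7 and 8.95 CPM in the bottom one. The 2 Insig genes therefore ran in opposite directions in all 6 tags. Of the 29 members tested, 26 were at least 25% higher in the top quartile (32.0% of all genes) and 1, Insig2, was at least 20% lower (9.26% of all genes).

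Fatty acid genes followed the sterol sum more weakly and unevenly. Elovl6, which lengthens palmitate to stearate, had a top-to-bottom ratio of 4.33, and Fasn 3.53. Fads1, a desaturase of polyunsaturated chains, had 2.74, Scd2 2.38 and Acaca, which makes malonyl-CoA, 2.01. Elovl1 had 1.72, Scd1 1.61, Acsl3 1.60 and Elovl5 1.39. Acsl4, which activates arachidonate-type chains, had 1.11, next to the median of all genes. Fads2 was under the level filter and had 3.90. Of the 10 tested, 5 were at least 2-fold higher (2.76% of all genes) and 9 at least 25% higher (32.0% of all genes). The list's median was 1.86. Scd1 and Scd2 are close paralogues, and how reads shared between them were counted was not given in the sources used here.

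Depth, cycle and class markers differed between the quartiles. Median UMIs were 21851, 26368, 28400 and 26898 from the lowest to the highest quartile, the summed G2M genes 2860, 4540, 5103 and 4791 CPM, and Areg with Krt16 122, 198, 215 and 269 CPM. Krt8, a gene of the class rule, read 478, 749, 950 and 1038 CPM, a top-to-bottom ratio of 2.17 and higher in 6 of 6 tags, and Krt18 had 1.81. Hmga2 had a ratio of 1.90, and Dcn 0.68, higher in 0 of 6 tags. The summed T markers stayed between 2.54 and 3.15 CPM, and the summed neutrophil markers read 18.2, 9.496, 4.91 and 6.45 CPM. Most of the neutrophil sum was S100a8, with a ratio of 0.29. S100a9 went the other way, from 0.13 CPM in the lowest quartile to 1.17 CPM in the highest, a ratio of 8.73 (3.17 to 33.5). Csf3r was at most 0.06 CPM. The part of these markers in the members' ratios was not tested. Within cells of 20000 to 40000 UMIs, within low-cycle cells, within each tag, without mitochondrial and ribosomal genes, after scaling by the median ratio and with each tag left out, 25 to 27 members were at least 25% higher and 1 was at least 20% lower. Across those 11 settings and the main one Insig2 ran from 0.62 to 0.77 and Insig1 from 10.4 to 16.8. Shares over all genes were not computed in those 11 settings.

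Genes of the same paths outside the members were read in the same quartiles. Among other sterol and isoprenoid enzymes 6 of 7 tested were at least 25% higher (32.0% of all genes). None was lower by the limit used above (9.26% of all genes). Acat2, which joins acetyl-CoA units, had a ratio of 7.09, Hsd17b7 4.30 and Lbr 2.19. Acat1 had 1.66, Ebp 1.43 and Ggps1, which makes geranylgeranyl diphosphate off the sterol branch, 0.85. Among other fatty acid and acetyl-CoA supply genes 8 of 12 were at least 25% higher and none lower, against the same shares. With so few genes in these lists, the absence of a lower one carries little weight. Acly, which makes acetyl-CoA from citrate, had 2.53, Tecr 1.63, Acsl5 1.59, Hsd17b12 1.45, Me1 1.26 and Hacd1 0.90. Of 4 genes for the partner factors, Nfyc had 1.253, Nfya 1.12, Nfyb 0.995 and Sp1 0.83.

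Genes of sterol sensing, storage and efflux did not follow. None of 11 tested was at least 25% higher (32.0% of all genes) and 2 were at least 20% lower (9.26% of all genes). Abca1, the cholesterol exporter induced by LXR, is named after its values were seen. It read 51.1, 19.1, 9.79 and 7.49 CPM from the lowest to the highest quartile, a ratio of 0.15 (0.13 to 0.17). By tag it stood at 9.72, 3.503, 4.18, 5.28, 6.64 and 9.58 CPM in the top quartile of U2, U3, U4, D0, D1 and D4, against 48.7, 43.6, 32.3, 43.2, 45.0 and 59.9 CPM in the bottom one. The top quartile was below the bottom one in all 6 tags with no overlap. Abca1 stood at 290 CPM in C1q cells, and the 7 macrophage markers summed to 20.1, 12.6, 6.35 and 5.17 CPM over the same quartiles. Most of that was Cd68, at 16.1, 6.24, 3.15 and 2.07 CPM, a ratio of 0.13 and higher in 0 of 6 tags, while C1qa and C1qb stayed under 1 CPM in each quartile, with ratios of 0.68 and 1.04. Fabp4, an adipocyte marker, had 0.19 and Hbb-bs, a red cell marker, 0.34. Another adipocyte marker, Cfd, went the other way, from 0 CPM in the lowest quartile to 0.75 CPM in the highest. Adipoq and Plin1 were at most 0.03 and 0.07 CPM, and Lep had 0 CPM. The part of these markers in the Abca1 ratio was not tested. Mylip, an LXR-induced ubiquitin ligase that removes lipoprotein receptors and is likewise named after its values were seen, had a ratio of 0.59. Soat1, which esterifies cholesterol for storage, had 1.15, Osbp 1.12, Mbtps1 1.09, Npc2 0.88 and Nr1h2 (LXR beta) 0.85.

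The pairwise correlations gave the same block. Over the 4937 cells of this 1 library, Pearson's r of log1p counts per 10000 had a median of 0.40 across the 55 pairs of sterol synthesis genes at or above 20 CPM, from 0.23 to 0.70. Corrected for Poisson noise the median was 0.69. Within single tags the uncorrected median ran from 0.34 in D0 to 0.46 in U3. The highest pair was Cyp51 with Idi1 at 0.70, followed by Msmo1 with Idi1 at 0.68. Insig1 with Hmgcs1 was the highest pair that crosses to a regulator, at 0.59. Sterol with fatty acid genes had a median of 0.17 over 110 pairs, and fatty acid genes among themselves 0.08 over 45. The same correction for Poisson noise gave these pairs medians of 0.38 and 0.33. Cells share depth and library. Thinning every cell to 10000 UMIs gave a sterol median of 0.24, but fewer UMIs also add counting noise. The part of depth in these correlations was not tested.

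**Figure D2:**
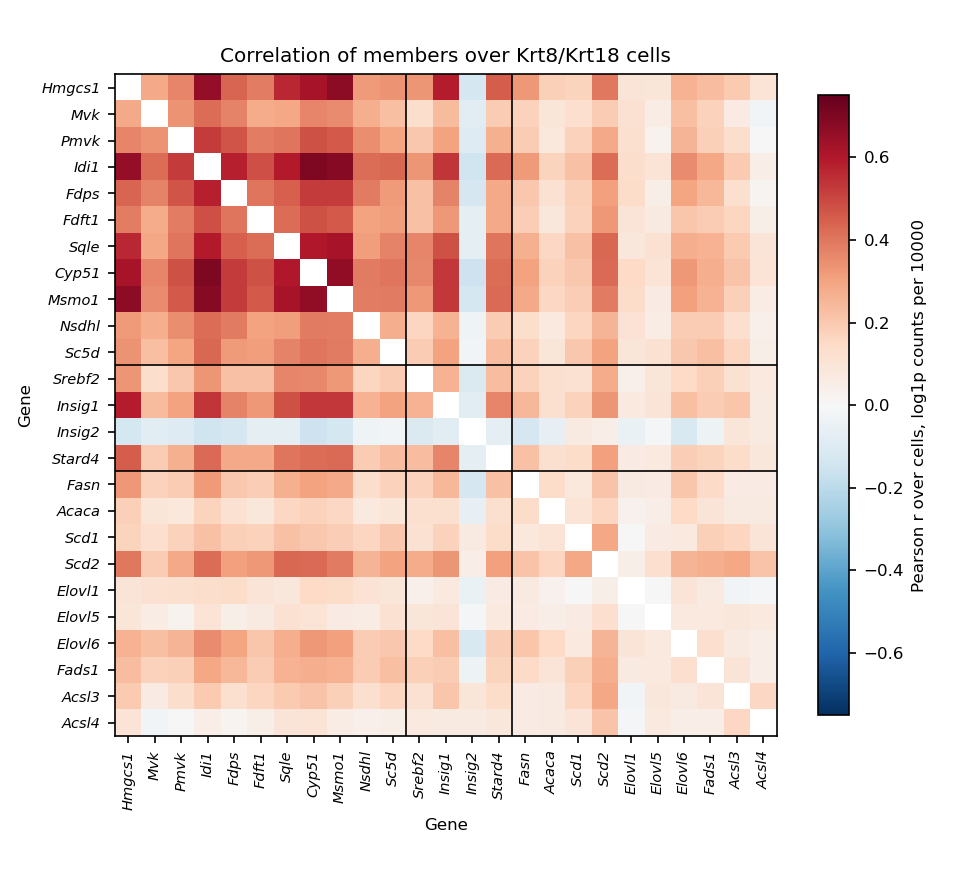
Pearson's r of log1p counts per 10000 between members of at least 20 CPM over 4937 Krt8/Krt18 cells, genes in the order sterol synthesis, regulation and fatty acid synthesis with lines between the groups. The sterol synthesis block is darkest, with Cyp51 and Idi1 at 0.70, and the Insig2 row is pale or blue.

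Against the summed sterol synthesis level, Insig1 had r = 0.61, Stard4 0.48, Scd2 0.47, Srebf2 0.41, Elovl6 0.36, Fasn 0.34 and Insig2 -0.16. Over the 5188 genes outside the members at or above 20 CPM the median was 0.06. Among those highest in that order were Lgals1 at 0.54, Ccnd1 (cyclin D1) at 0.52, the calcium-binding S100a6 and S100a4 at 0.48 each, Pfn1 and S100a11 at 0.47 and Actb and Acat2 at 0.46. Abca1 had r = -0.39. The lowest were the ferritin genes Ftl1 at -0.49 and Fth1 at -0.48, followed by the ribosomal protein genes Rpl37 and Fau at -0.40 each. Rpl37a at -0.38, Rpl23 and Rpl38 at -0.37 each and Rpl39 at -0.36 were also among the lowest.

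The members were also read in cycle and growth factor states, which no member defines. The pooled groups of each state include untagged cells and tags too small for the rule on tags. Cells above the 75th percentile of the summed G2M genes (1234 cells, median 34392 UMIs) were set against 1947 cells at or under the median of both cycle lists (median 23909 UMIs). A gene was called when it was at least 25% higher or 20% lower, its counting interval excluded 1 and its direction was the same in every tag with at least 20 cells in both groups. By this rule 5 of 27 members tested were higher, when 25.1% of 7153 genes were, and 1 was lower, when 9.05% were. The higher ones were Fdps (ratio 1.57), Idi1 (1.52), Pmvk (1.48), Elovl1 (1.36), which makes very long saturated chains, and Cyp51 (1.34). The members were thus called no more often than all genes in either direction. The median ratio was 1.20 over the members tested and 1.09 over all genes, a log2 shift of 0.13. Mvd, Dhcr7, Scap and Fads2 were under the level filter. Without U4 or without D4 the members called higher were 9, and without U3 or without D1 those called lower were 2, Acsl4 joining Insig2. With a tag left out the rule asks for agreement in fewer tags for every gene, and shares over all genes were not computed there.

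Insig2 was the member called lower. It had 74.3, 99.5, 79.3, 75.5, 72.0 and 84.0 CPM in G2M-high cells of U2, U3, U4, D0, D1 and D4, against 104, 107, 104, 118, 112 and 115 CPM in low-cycle cells. G2M-high cells lay below low-cycle cells in all 6 tags, which the rule asks of any called gene. The 2 groups did not overlap across tags, and the pooled ratio was 0.69 (0.66 to 0.72). With cells of 20000 to 40000 UMIs, or with the 90th percentile as the limit, no member was called lower, and across the main setting and 13 others the ratio was 0.63 to 0.74. Insig1 had 60.0, 68.8, 39.2, 75.5, 60.98 and 34.0 CPM in G2M-high cells of the same tags, against 67.6, 43.7, 49.7, 61.8, 65.2 and 40.9 CPM in low-cycle cells. Its groups overlapped and its ratio was 0.98, not called.

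S-high cells were 267 cells above the 75th percentile of the S list and not G2M-high, with a median of 29758 UMIs. Only U2 and D1 had 20 such cells, so the agreement rule rested on 2 tags. With U2 or D1 left out it rested on 1 of them and was no check of agreement. Of 29 members tested 17 were higher, against 30.9% of 7110 genes, and 3 were lower, against 12.5%. Dhcr7 and Fads2 were under the level filter, here and in the next state. Sterol synthesis genes made up 11 of the 17, with Mvk at 1.83, Idi1 at 1.70, Mvd at 1.67, Fdps at 1.67 and Cyp51 at 1.57. Hmgcs1 had a ratio of 1.30. Of the sterol genes tested, Sqle (1.18) and Lss (0.97) were not called. Stard4 (1.64) and Insig1 (1.28) were higher among the regulators, and Elovl6 (1.89), Fasn (1.74), Elovl1 (1.501) and Acaca (1.33) among fatty acid genes. The lower ones were Insig2 at 0.58, Acsl4 at 0.78 and Acsl3 at 0.79. Insig2 stood at 62.4 and 69.1 CPM in S-high cells of U2 and D1, against 104 and 112 CPM in their low-cycle cells. Without D1, Insig2 was the 1 member called lower, with Acsl3 at 0.83 and Acsl4 at 0.80, and without D0 Acsl3 (0.81) was not called. Without U2, Fdft1 (1.23) and Insig1 (1.246) were not called, while Srebf1 (1.27) and Dhcr7 (2.41) were. Srebf1 (1.27) was also called without D4. After division by the median ratio, since all genes had a median log2 ratio of 0.13, 11 members were called higher. Shares over all genes were not computed for these alternatives.

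Areg, which encodes the growth factor amphiregulin, and Krt16, a stress keratin, defined the last state. The 1234 cells above the 75th percentile of their summed share had a median of 27338 UMIs, and the 2469 at or under the median had 23896. The summed sterol synthesis level was 1446 CPM in Areg/Krt16-high cells and 1067 CPM in low cells, and the summed fatty acid level was 798 CPM in high cells and 777 CPM in low cells. Of 29 members tested 2 were called higher, against 4.06% of 7144 genes, and none lower, against 2.95%. They were Insig1 at 1.47 and Stard4 at 1.33. These pooled ratios include untagged cells (395 high and 908 low) and U4 (19 high and 151 low), which the rule on tags did not check. By tag, Stard4 had ratios of 1.17, 1.62, 1.29, 1.18 and 1.07 in U2, U3, D0, D1 and D4. Insig1 had 78.8, 71.6, 93.5, 83.0 and 54.1 CPM in high cells of U2, U3, D0, D1 and D4, against 64.5, 61.5, 61.12, 62.0 and 37.4 CPM in low cells. High cells were above low cells in 5 of 5 tags, which the rule asks of any called gene, and the ranges over tags overlapped.

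No sterol synthesis gene was called in that comparison, although Cyp51 and Pmvk had a ratio of 1.47 each, Msmo1 1.41, Hmgcs1 1.40 and Idi1 1.38. Idi1 had 191, 95.4, 148, 181 and 135 CPM in high cells of U2, U3, D0, D1 and D4, against 145, 147, 99.0, 138 and 80.2 CPM in low cells. Tag U3, with 20 high cells, went the other way from the other 4. Without U3, 10 members were called higher. Without U4 10 were also called higher: the percentile moved, U3 then had 19 high cells, under the minimum of 20, and it no longer entered the rule on tags. With percentiles set within each tag none was. Leaving out a tag asks for agreement in fewer tags for every gene, and shares over all genes were not computed in these settings. Insig2 had a ratio of 0.83, lower in 4 of 5 tags, and was not called. Fatty acid genes lay between 0.96 for Elovl6 and 1.135 for Fasn among those tested.

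**Figure D3:**
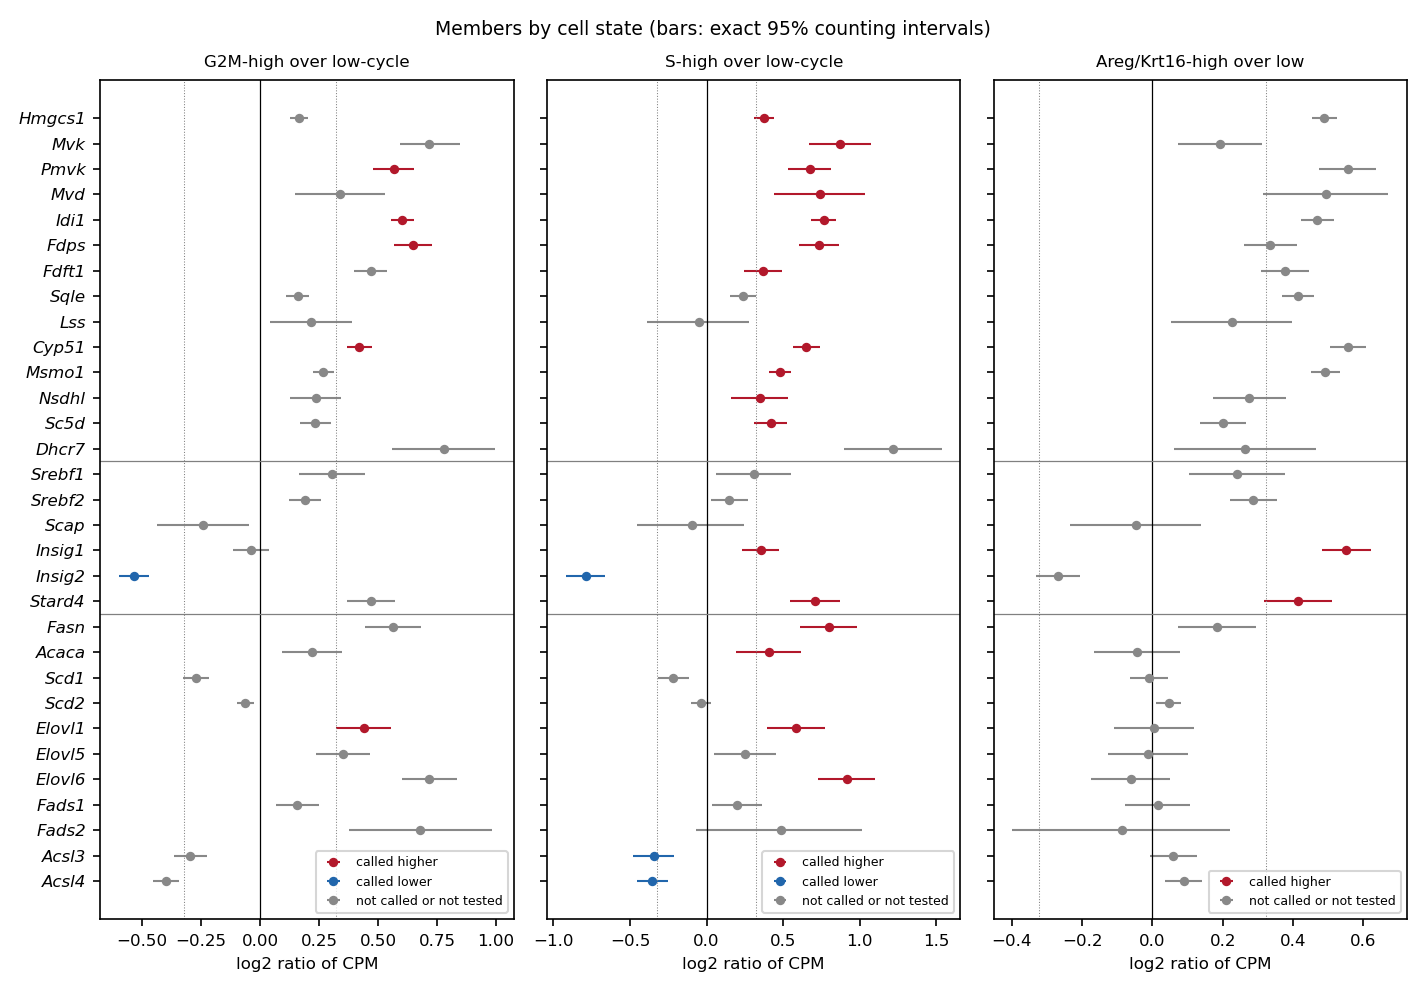
Ratio of CPM on a log2 axis with exact 95% counting intervals for each member in G2M-high over low-cycle, S-high over low-cycle and Areg/Krt16-high over low Krt8/Krt18 cells, with dotted lines at 25% higher and 20% lower. Insig2 lies left of a ratio of 1 in each panel, at ratios of 0.69, 0.58 and 0.83, and the 3 panels have different x ranges.

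Between cell classes most sterol synthesis genes were higher in Krt8/Krt18 cells than in both others, and Elovl5 was lower than in Cd3 cells. A member was called when it was at least 1.5-fold higher or lower and its counting interval excluded 1. Against Cd3 cells 22 of 28 tested members were higher in Krt8/Krt18 cells (30.2% of 7741 genes) and 1 was lower (29.1%). Against C1q cells 18 of 27 were higher (30.2% of 7671 genes) and none lower (26.2%). The median ratio over the tested members was 2.48 against Cd3 cells and 2.31 against C1q cells, and over all genes 1.03 and 1.07, a log2 shift of 0.10 against C1q cells. Mvd, Dhcr7 and Fads2 were under the level filter against Cd3 cells, and Lss, Dhcr7, Scap and Fads2 against C1q cells. The part of the depth difference between classes in these ratios was not tested. With mixed barcodes kept in the Cd3 and C1q classes, 14 members were higher than in Cd3 cells, a setting whose share over all genes was not computed.

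Among sterol synthesis genes, Sqle averaged 155 CPM in Krt8/Krt18 cells (95% interval 153 to 157), 20.55 CPM in Cd3 cells (13.8 to 29.5) and 37.2 CPM in C1q cells (28.5 to 47.8). Over single tags it ran from 135 to 165 CPM in Krt8/Krt18 cells, from 0 to 33.5 CPM in Cd3 cells and from 21.3 to 47.6 CPM in C1q cells, so none of these tags overlapped with those of Krt8/Krt18 cells. The C1q ranges over tags rest on the 4 tags with at least 20 C1q cells, without U3 (18 cells) and D4 (8 cells). Fdps had ratios of 5.92 over Cd3 and 3.56 over C1q cells, Hmgcs1 4.765 and 3.48, and Fdft1 4.72 and 3.84. Cyp51 had the smallest ratios among the called sterol genes, 1.68 and 2.18, at 127 CPM in Krt8/Krt18 cells against 75.1 CPM in Cd3 cells and 58.0 CPM in C1q cells. Pmvk was 48.8 CPM in Krt8/Krt18 cells, 15.6 in Cd3 cells and 58.6 in C1q cells, and was not called between Krt8/Krt18 and C1q cells. Mvd was not called there either, at 10.8 CPM in Krt8/Krt18 and 11.6 CPM in C1q cells. Lss was not called over Cd3 cells, at 11.9 CPM in Krt8/Krt18 and 10.6 CPM in Cd3 cells.

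The regulators differed less. Of 6 tested against Cd3 cells, Insig2 (2.24), Insig1 (2.15) and Srebf2 (1.63) were higher in Krt8/Krt18 cells (30.2% of all genes). Of 5 tested against C1q cells 1 was higher, Insig2 at 3.07 (30.2% of all genes). Insig1 was 67.0 CPM in Krt8/Krt18 cells and 61.04 CPM in C1q cells, a ratio of 1.10 (0.90 to 1.35). Against C1q cells Srebf2 was called without D1, at 1.74, and Stard4 without D4 (1.51) or U4 (1.58). Against Cd3 cells Srebf1, at 1.55 and not called, was called without D0 (1.84), D1 (1.76) or U4 (1.72). Scap was 10.1 CPM in Krt8/Krt18 cells, 12.0 in Cd3 cells and 9.16 in C1q cells.

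Scd1 differed most among fatty acid genes, at 119 CPM in Krt8/Krt18 cells, 6.38 CPM in Cd3 cells and 12.2 CPM in C1q cells. By tag it ran from 100 to 131 CPM in Krt8/Krt18 cells, from 0 to 18.6 CPM in Cd3 cells and from 0 to 13.7 CPM in 4 tags of C1q cells. Its Cd3 level was 5.34% of the Krt8/Krt18 level, between those of Sox9 and Hmga2 there. That Cd3 level rested on 9 UMIs, with a counting interval of 2.92 to 12.1 CPM. The part of free RNA in it was not tested. Scd2 was 282 CPM in Krt8/Krt18 cells, 77.9 CPM in Cd3 cells and 92.8 CPM in C1q cells, and its lowest tag in Krt8/Krt18 cells (269.98 CPM) was above the 6 tags of Cd3 cells and the 4 tags of C1q cells that were compared. Fads2 had 541 UMIs in Krt8/Krt18 cells and none among the 1411279 UMIs of Cd3 cells, at least 1.82-fold higher by the limit of 3 counts, and was under the level filter. Fasn over Cd3 cells, at 1.53, was not called without U2 (1.29) or D1 (1.504). Over C1q cells Acaca was not called without D1 (1.46), Fasn without U2 (1.52) and Acsl4 without U3 (1.46), U4 (1.47) or D4 (1.4998), while Fads1 was called without U2 (1.69) or D1 (1.80).

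Among the elongases, Elovl5, which lengthens polyunsaturated chains, was 27.6 CPM in Krt8/Krt18 cells against 45.3 CPM in Cd3 cells, a ratio of 0.61 (0.48 to 0.79), and was lower in 6 of 6 tags. With mixed barcodes kept it was not called. Elovl6 was 28.2 CPM in Krt8/Krt18 cells against 30.5 CPM in Cd3 cells, and its Cd3 level rested on 1 tag. Cd3 cells of U3 had 72.2 CPM of Elovl6 (28 UMIs in 25 of 210 cells), while U2 had 13.4, U4 7.75, D0 23.6 and D1 18.8 CPM and D4 had none. Without U3 the ratio of Krt8/Krt18 to Cd3 cells was 1.92 and was called higher. In cells with at least 1000 genes it was 3.59.

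Cd3 cells against C1q cells gave 2 higher of 25 tested members (24.0% of 7706 genes) and 7 lower (21.3%). The higher ones were Elovl6 at 4.16, which was 1.89 and not called without U3, and Elovl5 at 2.01. Mvk, Mvd, Lss, Dhcr7, Scd1 and Fads2 were under the level filter. The lower ones were Pmvk (0.27), Elovl1 (0.39), Fads1 (0.40), Insig1 (0.51), Msmo1 (0.54), Sqle (0.55) and Acsl4 (0.63). Without D1, which held 166 of the 359 C1q cells, Cyp51 (1.58) and Fasn (3.06) were also called higher, and Fads1 (0.50) and Sqle (0.66) were not called. Without U2, Acsl4 (0.70) was not called, while Hmgcs1 (0.61) and Idi1 (0.63) were called lower. Without U3, Insig2 (1.55) was called higher.

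Other fixed lists were read between the classes. Of 16 sterol sensing, storage and efflux genes, 14 were tested between Krt8/Krt18 and C1q cells, and 7 were lower in Krt8/Krt18 cells (26.2% of all genes) and none higher (30.2%). Npc2, which passes cholesterol out of lysosomes, was 653 CPM in Krt8/Krt18 cells against 1528 CPM in C1q cells, and Soat1 was 40.5 CPM in Krt8/Krt18 cells against 179 CPM in C1q cells. Abca1 was 20.6 CPM in Krt8/Krt18 cells against 290 CPM in C1q cells. Among 7 other sterol and isoprenoid genes tested against Cd3 cells, 3 were higher (30.2% of all genes) and 2 lower (29.1%) in Krt8/Krt18 cells, near the shares over all genes, the lower ones being Lbr and Ebp. Lbr was 23.1 CPM in Krt8/Krt18 cells against 115 CPM in Cd3 cells, and Ebp 53.9 CPM in Krt8/Krt18 cells against 82.2 CPM in Cd3 cells. Among 12 other fatty acid genes 7 were higher and 2 lower against the same shares, with Me1, which makes NADPH, at 76.6 CPM and Hacd1 at 73.6 CPM in Krt8/Krt18 cells, against 9.21 CPM each in Cd3 cells.

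**Figure D4:**
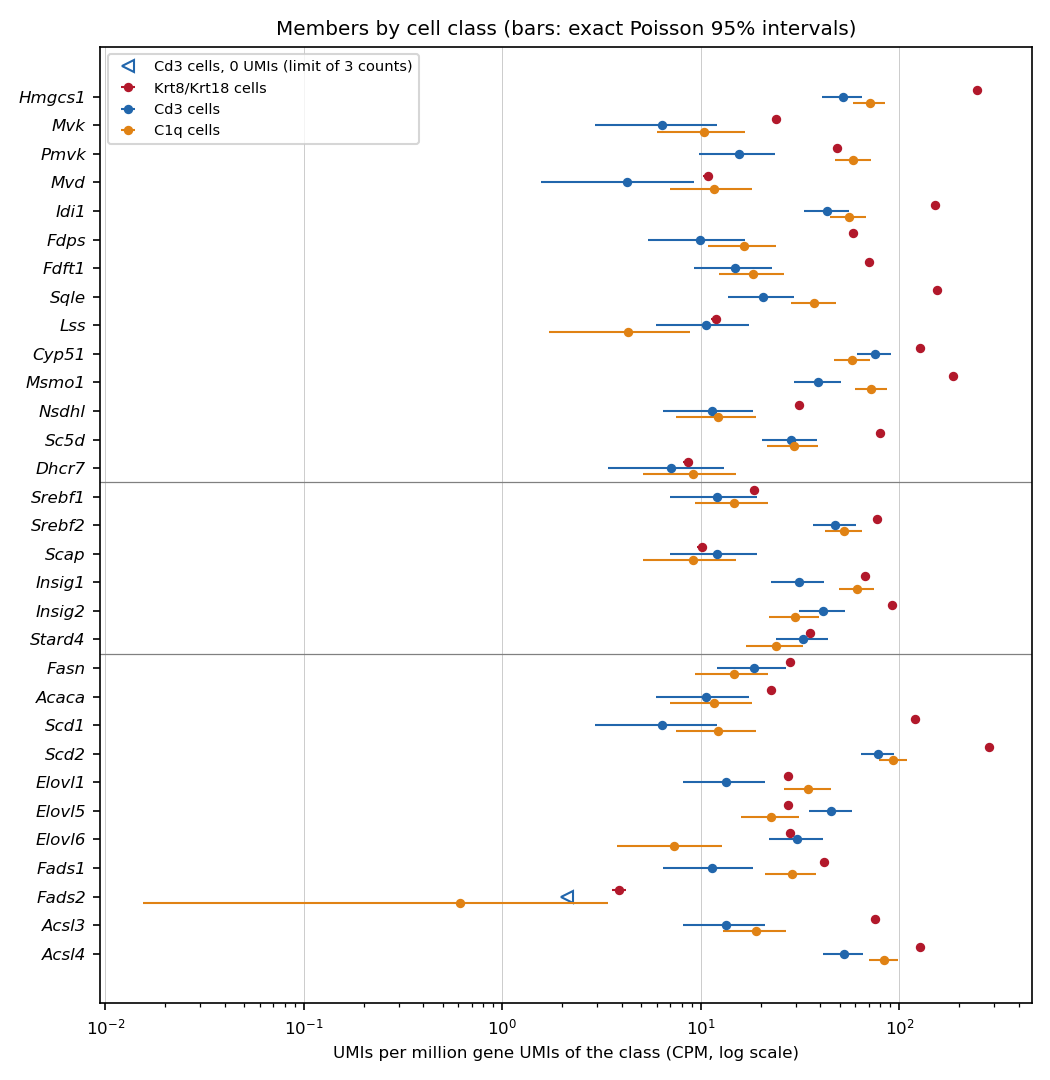
Level of each member in CPM on a log axis in Krt8/Krt18, Cd3 and C1q cells, with exact Poisson 95% intervals that cover counting error only; the open triangle marks Fads2 in Cd3 cells, with 0 UMIs, at the limit of 3 counts. Scd1 stands at 119 CPM in Krt8/Krt18 cells against 6.38 and 12.2 CPM in the others, and Elovl5 is highest in Cd3 cells.

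Across the 6 tags most members' levels in Krt8/Krt18 cells lay close together. The summed sterol synthesis level was 1284, 1183, 1149, 1127, 1247 and 939 CPM in U2, U3, U4, D0, D1 and D4, and the summed fatty acid level 802, 775, 752, 750, 758 and 792 CPM. D4 was thus lowest for sterol genes and second highest for fatty acid genes. Its level was the lowest of the 6 tags for 11 of 14 sterol synthesis genes, and for 0 of 11 fatty acid genes. The share of all genes lowest in D4 was not computed. Sterol synthesis genes varied together between cells, so these 11 are not separate observations. Hmgcs1 stood at 286, 261, 247, 256, 238 and 150 CPM in U2, U3, U4, D0, D1 and D4, and Insig2 at 88.9, 93.1, 90.1, 96.8, 88.1 and 91.2 CPM. The highest tag was 1.91 times the lowest for Hmgcs1 and 1.10 times for Insig2. The median of that ratio was 1.40 for 11 sterol synthesis genes, 1.32 for 25 members and 1.27 for all 5216 genes at or above 20 CPM. The tag D4 rests on 159 cells, U2 on 1667 and the others on 148 to 1011.

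**Figure D5:**
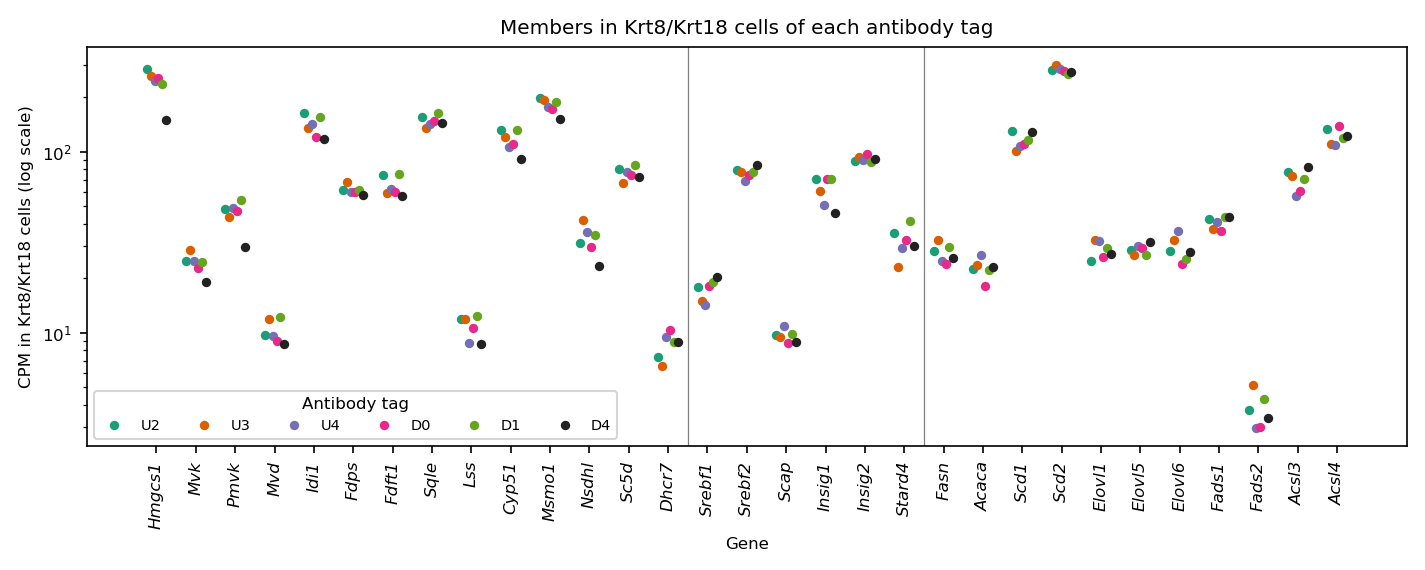
Level of each member in Krt8/Krt18 cells of each antibody tag, in CPM on a log axis, with 1 point for each tag. Points lie close together for most genes. D4 lies lowest for 11 of 14 sterol synthesis genes (share over all genes not computed), with Hmgcs1 at 150 CPM against 238 to 286 CPM in the other tags.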

How the data were processed

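The deposited matrix holds raw UMI counts, not normalized, for 31053 genes and 6 antibody tags in 9747 barcodes. Cell Ranger and mm10 come per the submitters' processing notes. Release 3.1.0 is named in the matrix header, per the file headers. The annotation was not given in the sources used here. Depth was 187339115 gene UMIs, with a median of 18388 per barcode. Barcodes needed at least 500 genes and under 15% mitochondrial UMIs, which 8784 did. Tags were assigned with HTODemux (Seurat 5.3.0, R 4.3.3, quantile 0.99, seed 42), and 865 multi-tag barcodes were left out as doublets, as were Cd3 or C1q barcodes with at least 3 Krt8 and Krt18 UMIs or meeting both rules. Doublets within a tag or with an untagged cell remain.

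UMIs were summed over cells and given as CPM. Ratios of CPM carry exact conditional 95% intervals (Clopper-Pearson) and levels exact Poisson intervals, which cover counting error only; 3 counts stand for a count of 0. Genes averaging under 10 CPM over the 2 groups were not tested. No p-value was computed, since the pool is 1 sample. Python 3.11.15, numpy 2.4.6, scipy 1.17.1, pandas 2.3.3 and matplotlib 3.10.9 were used, and the calling code was tested on simulated data. Gene identifiers matched GENCODE M21 for 30934 of 31053, and promoters come from RefSeq, build GRCm38.p6.

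The members and lists were chosen with earlier results of these data known. All 31 members were to be named, the up to 6 genes of highest Krt8/Krt18 level of each other list, and up to 10 genes most correlated with the sterol sum. Some genes that the rule would name are not reported here. Alternatives changed filters, mixed barcodes, depth, percentiles, scaling, thresholds and single tags.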

Additional observations from a re-analysis of the deposited data

Results flagged for a closer look

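Among 33 quantities compared over the 6 antibody tags in Krt8/Krt18 cells (the 31 members and the summed sterol and fatty acid levels), 1 had a tag far from the others. Hmgcs1 stood at 149.9 CPM in D4, while the other 5 tags lay between 238 and 286 CPM. The gap between D4 and its nearest neighbour, divided by the whole range, was 0.645, past Dixon's 95% critical value for 6 samples. Chance flags about 1 in 20 groups, so 1 of 33 is no more than that rate gives. D4 had 159 Krt8/Krt18 cells, a median of 23116 UMIs and 4.04% mitochondrial UMIs, against medians of 23762 to 30713 UMIs and 3.44% to 4.09% in the other tags.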

How the results depend on the processing

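Of 194 counts and medians recomputed under an alternative, 163 stayed within 1.5 times the main value or within the spread between tags, and 31 moved. Of 2983 recomputed gene ratios 2767 kept their direction and call, 102 gained a call, 111 lost it and 3 reversed. The reversed ones were Elovl6 in Krt8/Krt18 over Cd3 cells, at 3.59 with at least 1000 genes and 1.92 without U3 (0.735 to 1.92 over the tags left out in turn), and Sqle in Cd3 over C1q cells, at 1.05 with mixed barcodes kept. Keeping mixed barcodes left 14 members higher and 0 lower in Krt8/Krt18 over Cd3 cells, and 2 lower in Cd3 over C1q cells. A threshold of 2 left 0 lower and 3 lower in those comparisons, and dropping mitochondrial and ribosomal genes gave 5 higher in Cd3 over C1q cells. In G2M-high cells the members higher were 8 at all depths, 3 after median scaling and 2 at a threshold of 1.5, and those lower were 0 at 20000 to 40000 UMIs, at the 90th percentile or at 1.5, 3 after scaling and 2 with percentiles within tags. In S-high cells 11 were higher after scaling and 10 at 1.5, with 1 lower at 1.5. In Areg/Krt16-high cells 10 were higher at 20000 to 40000 UMIs, 14 at the 90th percentile, and 0 at 1.5 or with percentiles within tags. The sterol correlation was 0.69 after noise correction and 0.24 after thinning. Leaving out single tags gave, for Cd3 over C1q cells, 2 to 4 members higher and 5 to 8 lower, for G2M-high cells 5 to 9 higher and 1 to 2 lower, for S-high cells 17 to 18 higher and 1 to 3 lower, and for Areg/Krt16-high cells 2 to 10 higher. Against those, Krt8/Krt18 over Cd3 cells gave 21 to 23 higher and 1 lower, and over C1q cells 17 to 19 higher and 0 lower. The cause of these moves was not tested, and shares over all genes were not computed under the alternatives. Ratios of Fads2 to Cd3 cells, which had no UMI of it, were left out, as were those to C1q cells without U2. The settings for the sterol quartiles were chosen after seeing the data. No paired analysis was possible because no label ties a tag to a treatment and the pool is 1 sample.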

Other observations

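Krt8/Krt18 cells with no tag numbered 1851, with a median of 22302 UMIs. Their summed sterol synthesis level was 1141 CPM, within the 939 to 1284 CPM of the 6 tags, and their summed fatty acid level was 789 CPM, within 750 to 802 CPM.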
